A study of Mus musculus with 2 samples.

Results

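The 27 genes described here are those of cholesterol synthesis and of its control by the sterol regulatory element binding proteins (SREBPs), read in the adrenal gland of female mice. They were chosen by name, as the gene name that the deposited tables give to each model, and all 27 were read in both libraries, out of 16400 annotated genes with at least 1 read. There are 18 enzymes, from Acat2 to Dhcr7, 2 sterol-associated proteins, Erg28 and Stard4, and 7 genes of the SREBP system: Srebf1, Srebf2, Scap, Insig1, Insig2, Mbtps1 and Mbtps2. The study has a single group of 2 long-read RNA libraries, made from adrenal glands of female B6CASTF1/J mice, a first-generation hybrid strain, at 25 days of age. No allele, agent or second tissue is given, so no condition could be compared. The labels call the libraries biological replicates 1 and 2, and the tissue entries number their animals 03 and 04, but both library entries name animal 03 and both samples carry the same donor identifier. Whether n = 2 stands for separate animals is therefore not settled, and SDs measure only the spread between these libraries, which may be technical. The p-values set the reads of these libraries against counting error alone. They hold no estimate of the spread between libraries or animals.

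Cells build cholesterol from acetyl-CoA. The first enzymes make mevalonate and turn it into isoprenoid units, and those units are joined into squalene, closed into lanosterol and trimmed to cholesterol. The SREBP proteins are made as membrane precursors in the endoplasmic reticulum, where Insig proteins hold them through the escort protein Scap while sterols are plentiful. When sterols fall, Scap carries them to the Golgi, the proteases encoded by Mbtps1 and Mbtps2 cut them, and the freed part enters the nucleus and binds the promoters of the genes of the pathway. The adrenal cortex uses cholesterol as the precursor of its steroid hormones, taken up from lipoproteins or made in the cell.

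In long-read data a read can span a transcript with its exons joined, so that a gene's level and its form are read together. Replicate 1 held 426150 reads and replicate 2 held 770041, of which 397176 and 712032 lay on annotated genes. Levels are CPM, counts scaled to a fixed total of annotated-gene reads, and a count of 0 allows up to 3 reads, 7.55 CPM in replicate 1 and 4.21 CPM in replicate 2. Intervals of shares are 95% Wilson intervals, and all intervals cover counting error only, since reads without molecular identifiers are not independent molecules. The 6 adrenal cortex markers (Star, Cyp11a1, Cyp21a1, Hsd3b1, Cyp11b1 and Nr5a1) were read in both libraries, at a summed 74546 and 67341 CPM.

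The sequences printed here carry the account that follows, and positions are on build mm10 (GRCm38). The coding bases of the exon with the start codon are shown for Srebf1, because its 2 first exons give the protein different beginnings, and for Dhcr7, because its start codon exon is the one that the main forms join to different upstream exons. They are GENCODE M21 transcript sequences, written 5′ to 3′ with the start codon in capitals.
Srebf1 SREBP-1a, 91 coding bases of the upstream first exon, chr11:60220453-60220543, minus strand: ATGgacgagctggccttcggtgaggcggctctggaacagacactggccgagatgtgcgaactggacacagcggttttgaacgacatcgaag
Srebf1 SREBP-1c, 19 coding bases of the downstream first exon, chr11:60210336-60210354, minus strand: ATGgattgcacatttgaag
Dhcr7, 86 coding bases, chr7:143836644-143836729, plus strand: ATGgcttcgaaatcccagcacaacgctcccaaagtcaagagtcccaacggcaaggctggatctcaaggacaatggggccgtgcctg

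Promoter stretches are shown for Dhcr7 and Srebf1, at an upstream and a downstream start, and for Hmgcs1 and Srebf2 as examples. They come from RefSeq's table on build GRCm38.p6, end at the start site or, where an annotated coding transcript begins earlier, just before it, and have in capitals, on either strand, CCAAT (the box that NF-Y binds), GGGCGG (the box that Sp1 binds) and TCACNCCA, a core shared by sterol regulatory elements.
Dhcr7, downstream start, chr7:143829964-143830076, plus strand: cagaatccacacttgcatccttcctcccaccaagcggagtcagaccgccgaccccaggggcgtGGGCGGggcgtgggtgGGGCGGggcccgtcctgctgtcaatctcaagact
Dhcr7, upstream start, chr7:143822917-143823166, plus strand: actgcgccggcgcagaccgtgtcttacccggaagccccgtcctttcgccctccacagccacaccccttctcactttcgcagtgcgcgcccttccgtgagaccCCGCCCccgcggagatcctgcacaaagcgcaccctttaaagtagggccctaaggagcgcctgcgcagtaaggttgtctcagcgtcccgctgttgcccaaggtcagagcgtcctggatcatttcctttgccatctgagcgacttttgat
Srebf1, upstream start, chr11:60220628-60220877, minus strand: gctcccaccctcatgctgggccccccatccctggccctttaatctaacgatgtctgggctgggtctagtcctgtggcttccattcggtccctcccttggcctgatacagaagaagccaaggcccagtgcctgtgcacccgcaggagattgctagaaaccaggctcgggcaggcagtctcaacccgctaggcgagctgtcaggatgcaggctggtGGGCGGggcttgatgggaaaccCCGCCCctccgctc
Srebf1, downstream start, chr11:60210472-60210721, minus strand: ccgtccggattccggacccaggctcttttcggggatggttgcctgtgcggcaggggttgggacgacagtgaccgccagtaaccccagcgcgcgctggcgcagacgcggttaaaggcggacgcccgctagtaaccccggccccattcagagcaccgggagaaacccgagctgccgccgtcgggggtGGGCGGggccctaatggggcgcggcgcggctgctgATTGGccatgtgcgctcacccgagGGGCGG
Hmgcs1, chr13:119690101-119690350, plus strand: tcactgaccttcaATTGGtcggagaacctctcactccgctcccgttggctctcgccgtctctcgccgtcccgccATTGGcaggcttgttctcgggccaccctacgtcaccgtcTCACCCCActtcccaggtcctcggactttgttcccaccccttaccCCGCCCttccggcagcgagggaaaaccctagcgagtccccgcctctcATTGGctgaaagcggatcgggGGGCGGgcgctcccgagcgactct
Srebf2, chr15:82147019-82147180, plus strand: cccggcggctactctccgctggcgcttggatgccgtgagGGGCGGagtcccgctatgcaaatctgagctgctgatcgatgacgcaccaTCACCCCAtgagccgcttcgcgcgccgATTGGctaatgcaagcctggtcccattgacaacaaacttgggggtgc

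The whole RefSeq windows, 250 bases before to 50 after a start, were at hand for 23 of the 27 genes, 31 windows in all. Fdps, Fdft1, Sqle and Stard4 had none. CCAAT stood in 19 of the 31, against 37.4% of the 32851 windows of all genes, and GGGCGG in 25 of the 31, against 35.7%. TCACNCCA stood in 3 of the 31, those of Hmgcs1, Msmo1 and Srebf2, against 4.36% of all windows. In this respect the stretches printed for Hmgcs1 and Srebf2 are not typical of the 31. The Dhcr7 window at the downstream start held CCAAT 2 times and GGGCGG 3 times, in part in bases not printed, and its 2 upstream windows held no CCAAT. A match says only that these letters stand in the window.

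The 27 genes together made up 0.782% of annotated-gene reads in replicate 1 (interval 0.755 to 0.810), while in replicate 2 the share was 0.595% (interval 0.578 to 0.613), a mean of 0.688% ± 0.132 (SD, n = 2). The 18 enzymes held most of it, 0.679% and 0.495%. The mean level ran from 1158 CPM for Fdps down to 8.69 CPM for Mbtps2. Fdps, Dhcr7, Hmgcs1 and Msmo1 held 55.9% of the 27 genes' reads in replicate 1 and 55.0% in replicate 2.

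**Figure D1:**
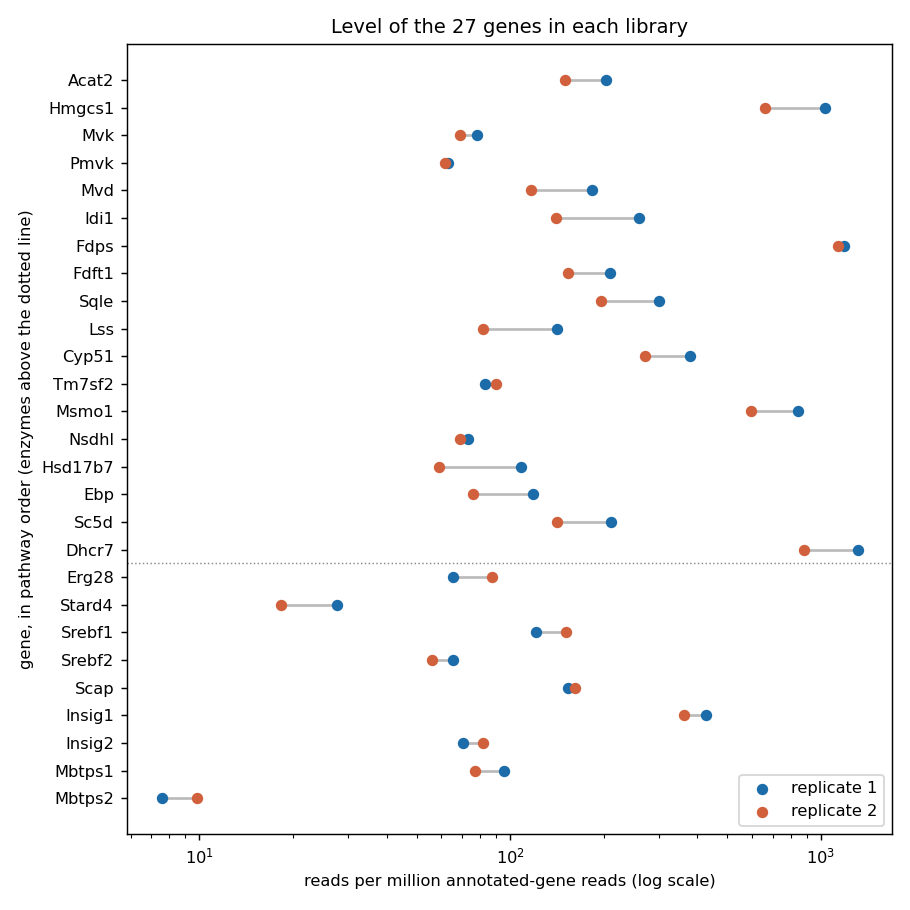
Each row is a gene in pathway order and each point its level in 1 library, in CPM on a log axis; the grey line joins the 2 libraries. Fdps, Dhcr7, Hmgcs1 and Msmo1 stand highest, Mbtps2 lowest, and most enzymes have their replicate 1 point to the right.

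In the mevalonate arm, Acat2, which joins 2 acetyl-CoA units, had 81 reads in replicate 1 and 107 in replicate 2. Hmgcs1 (chr13:119690379-119708260), which adds the next unit to make HMG-CoA, had 410 and 469 reads, that is 1032 and 659 CPM, 845 CPM ± 264 (SD, n = 2). The kinases that phosphorylate mevalonate were far lower, Mvk at 73.4 CPM ± 6.53 and Pmvk at 62.4 CPM ± 0.813 (SD, n = 2). Their levels in the 2 libraries were close. Mvd, which makes isopentenyl diphosphate, had 150 CPM ± 47.5 and Idi1, which isomerises it, 199.9 CPM ± 84.1 (SD, n = 2). Fdps (chr3:89093588-89101959), which joins the isoprenoid units into farnesyl diphosphate, had 470 and 807 reads, 1183 and 1133 CPM. It was the highest of the 27 and rank 74 of all genes read.

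From squalene on, Fdft1, the squalene synthase, had 181 CPM ± 39.5, Sqle, the squalene epoxidase, 249 CPM ± 75.6, and Lss, which closes the ring, 111 CPM ± 42.1 (SD, n = 2). Cyp51, the lanosterol demethylase, followed at 324 CPM ± 75.4, and Msmo1, the sterol C4-methyl oxidase, at 721 CPM ± 177 (SD, n = 2). Msmo1 had 336 and 424 reads. Its partners in removing the methyl groups were low: Nsdhl at 70.9 CPM ± 2.97, Hsd17b7 at 83.6 CPM ± 34.8, and Erg28, thought to hold those enzymes together, at 76.3 CPM ± 15.3 (SD, n = 2). Ebp, the sterol isomerase, had 97.1 CPM ± 30.05, Sc5d, the desaturase, 177 CPM ± 49.2, and Tm7sf2, a sterol reductase, 86.5 CPM ± 4.81 (SD, n = 2). Dhcr7 (chr7:143823145-143848410), whose enzyme reduces 7-dehydrocholesterol to cholesterol, had 521 and 630 reads, 1312 and 885 CPM.

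Of the regulators, Insig1 was the highest at 394 CPM ± 44.7 and the next after those 4 genes (SD, n = 2). Scap had 154 and 162 CPM, Srebf1 136 CPM ± 21.8 and Srebf2 60.8 CPM ± 6.57 (SD, n = 2). Insig2 had 76.0 CPM ± 7.75, Mbtps1 86.5 CPM ± 13.0 and Mbtps2, with 3 and 7 reads, 8.69 CPM ± 1.61 (SD, n = 2). Stard4, a carrier of cholesterol within the cell, had 11 and 13 reads. With annotated transcripts alone, Srebf1 stood at 74.4 CPM, Scap at 103, Mvk at 46.6, Mbtps2 at 4.37 and Dhcr7 at 0.912 CPM, over 1.5 times below their levels here, and the other 22 genes moved less. Scaled per kilobase of the main annotated transcript, the same 5 genes led: Fdps at 936, Dhcr7 at 390.2, Msmo1 at 353, Hmgcs1 at 261 and Insig1 at 146 CPM per kilobase. Of the 26 pairs of neighbours in the order by CPM, 22 had ranges over the libraries that overlapped, and Msmo1 over Insig1 was the only pair without overlap among the higher genes. Of the paralogs that could share reads with members, Acat3 had 1 read in each library and Idi2 none, while Acat1 had 128 and 214 and Hsd17b12 40 and 72. Some members overlap other annotated genes, where reads could be assigned to either. On its own strand, Fdps overlaps Gm43738 (5 and 2 reads) by 7512 bases, and Tm7sf2 overlaps Vps51 (28 and 56 reads) by 532 bases. Mvd overlaps Gm20388 (44 and 99 reads) and Fdft1 overlaps Ctsb (1179 and 1785 reads) on the opposite strand.

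Which forms these levels stand for was read from the class of each model. A model is an annotated transcript, an incomplete splice match (its introns are an unbroken run of those of an annotated transcript, but not all of them), a new combination of annotated splice sites, a chain with a new splice site, or a genomic model without the gene's splicing. Annotated transcripts held 70.7% of the 27 genes' reads in replicate 1 (interval 69.1 to 72.3) and, in replicate 2, 69.1% (interval 67.7 to 70.5), against 77.1% and 77.0% over all annotated genes. Incomplete matches held 21.5% and 22.2%, against 9.10% and 9.28%. Dhcr7 carried most of this: without it the incomplete share of the other 26 genes was 7.70% and 10.3%.

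**Figure D2:**
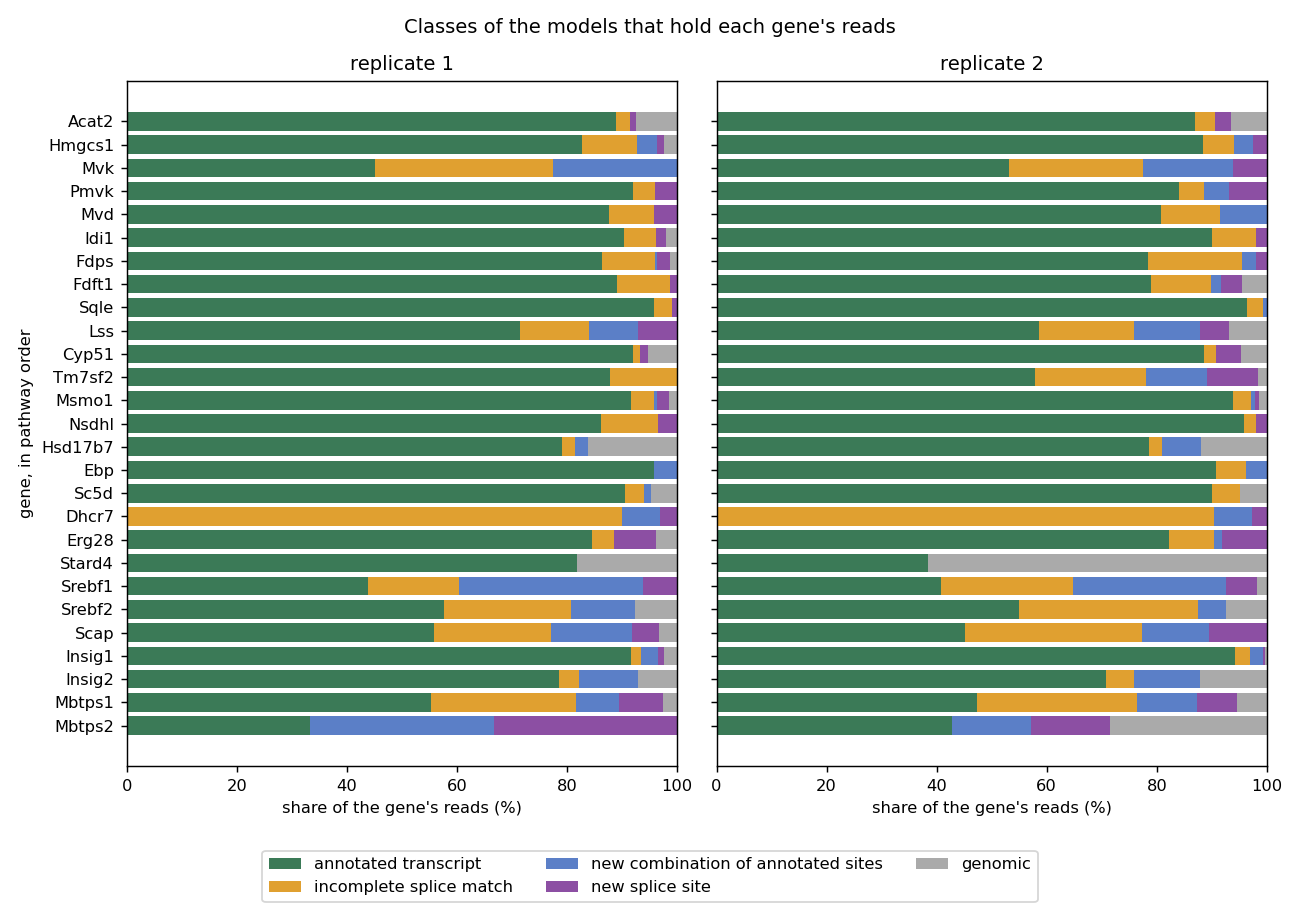
Each bar splits the reads of 1 gene in 1 library by the class of the model that holds them, in percent. Dhcr7 has almost no annotated reads in either library, and Srebf1, Scap and Mbtps1 have a larger part outside the annotation than Sqle, Ebp or Insig1.

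Dhcr7 had 0 reads on annotated transcripts in replicate 1 and 1 in replicate 2, of 521 and 630. Its incomplete share was 90.0% and 90.3%, rank 12 of the 3926 genes with at least 20 reads in each library, whose median was 4.90%. Most reads belonged to a single chain of 8 exons, 361 and 392 reads. It lacks both upstream non-coding exons that the annotated full-length transcripts begin with (chr7:143823167-143823540 or chr7:143829626-143829739) and begins in the exon that ends at 143830265, 7098 bases after the upstream start. Models that begin there and hold neither upstream exon took 409 of 521 reads in replicate 1, 78.5% (74.8 to 81.8), and 450 of 630 in replicate 2, 71.4% (67.8 to 74.8). The upstream exons were read 0 times and 1 time. RefSeq lists a start at 143830214, that of the downstream promoter printed above. GENCODE also has a transcript exon that begins ahead of that base, just after the printed stretch. The start codon is in a later exon, at 143836644. Models that held the whole coding region with its annotated introns took 86.4% (83.2 to 89.1) and 71.1% (67.5 to 74.5) of all Dhcr7 reads.

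Further Dhcr7 chains differed ahead of the start codon. A 169-base non-coding exon (chr7:143833768-143833936) was spliced in by 12 reads in replicate 1 and 27 in replicate 2 in a 9-exon chain, and a 128-base version with the same end by 8 and 4. The junctions of both chains are annotated, and only their full combinations are not. A first exon that runs on to 143830312 and uses a splice site outside the annotation had 9 and 11 reads. Another 46 and 59 reads belonged to a 7-exon chain with no junction into the start codon exon. In replicate 1 its model began at 143835118, inside the last intron before the start codon, and ran unspliced into that exon. In replicate 2 its reads did not count as holding the whole coding region, so its model had other ends there. Some models lacked the beginning of the coding region: a 6-exon one, from 143837762 in replicate 1, had 10 and 23 reads, and models of the last exon alone had 27 and 61.

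**Figure D3:**
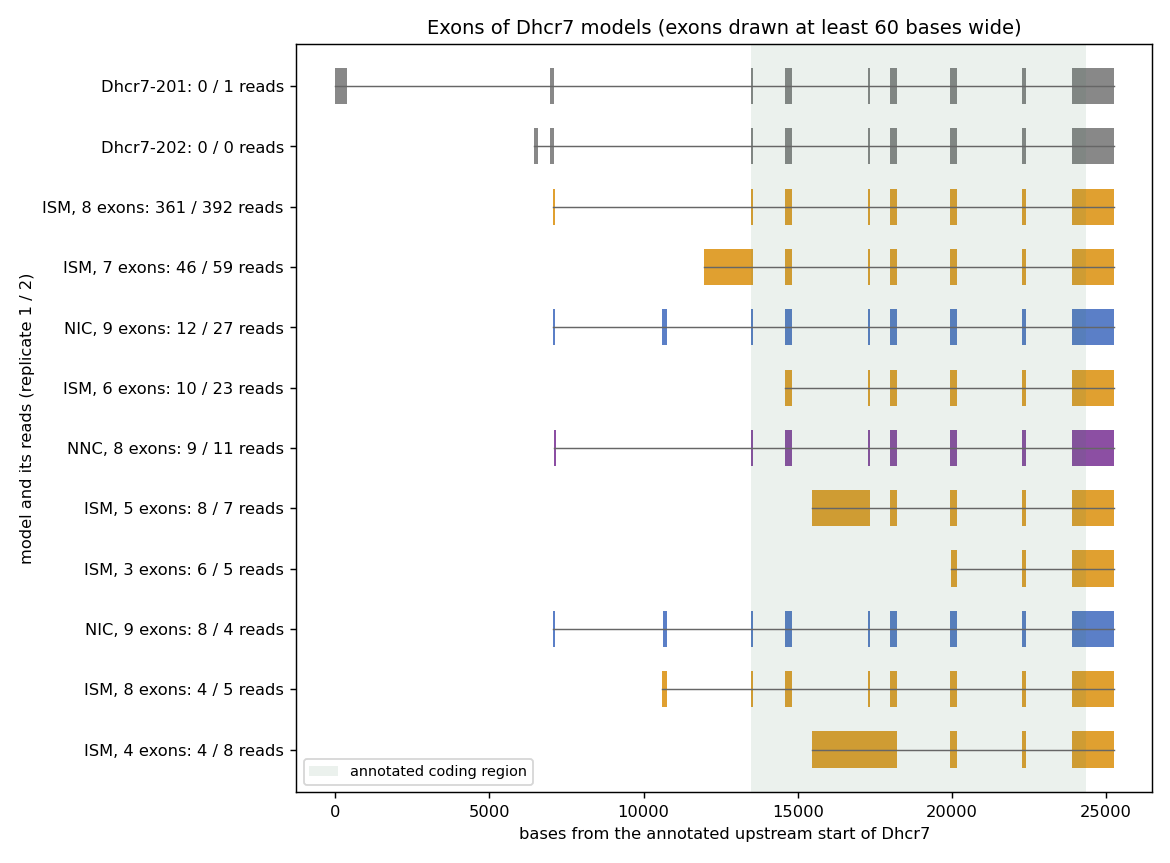
Boxes are exons and lines introns of 2 annotated Dhcr7 transcripts and of the models with at least 4 reads in each library, by distance in bases from the upstream start; the shaded band is the coding region, and exons are drawn at least 60 bases wide. The most read model, with 361 and 392 reads, begins in the exon that ends 7098 bases after that start and keeps every coding exon. The outer ends of models outside the annotation are those of replicate 1.

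Leaders and first exons were compared by the junction into the exon with the start codon, or, where the start codon lies in the first exon, into the next exon. Of the 24 genes with at least 20 such reads in each library, 16 used a single upstream exon in at least 95% in both. Another 4 had a second form at 20% or more in both: Hmgcs1, Mvk, Fdps and Srebf1. Reads without such a junction were left out, so forms that begin in the intron ahead are not seen. Acat2, 1 of the 16, had 16 and 19 of them. An annotated Acat2 transcript that begins in that intron had 8 and 9 reads.

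Hmgcs1 was read with and without a 59-base non-coding exon (chr13:119694989-119695047). Reads without it numbered 209 of 360 in replicate 1, 58.1% (52.9 to 63.0), and 276 of 446 in replicate 2, 61.9% (57.3 to 66.3). Reads with it numbered 136 and 155, 37.8% and 34.8%. A 158-base version that starts earlier (chr13:119694890-119695047) had 13 and 10. The coding region is the same in all 3 forms, and 89.8% and 93.8% of the gene's reads lay on models that held it whole.

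For Fdps, 297 of 430 junction reads in replicate 1, 69.1% (64.5 to 73.3), and 470 of 705 in replicate 2, 66.7% (63.1 to 70.0), joined the first exon straight to the start codon exon. A 216-base exon between them (chr3:89100921-89101136) was used by 112 and 168 reads, 26.0% and 23.8%. GENCODE places the start codon of another transcript inside that exon at 89101099, and it lies in frame, 67 codons before the start codon of the main transcript. Whether it is used cannot be read from RNA. The intron between the first exon and that exon, 725 bases (chr3:89101137-89101861), was kept by 42 of 470 Fdps reads in replicate 1, 8.94% (6.68 to 11.9), and by 149 of 807 in replicate 2, 18.5% (15.9 to 21.3). Most of these reads, 34 and 123, were counted as incomplete matches, and the models of those with the most reads (21 and 62, 13 and 52) reach into the first exon.

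Mvk, with fewer reads, had a 38-base non-coding exon (chr5:114444652-114444689) in 7 of 24 junction reads in replicate 1, 29.2% (14.9 to 49.2), and 10 of 40 in replicate 2, 25.0% (14.2 to 40.2). The full chain of 12 exons with it, a new combination of annotated splice sites, had 5 and 6 reads.

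Srebf1 joined either of 2 first exons to the shared exon chr11:60206838-60207257. The upstream one (chr11:60220453-60220604) gives the SREBP-1a form, a strong activator with a long acidic start, and the downstream one (chr11:60210336-60210392) the SREBP-1c form with a short start, as the coding bases above show. The start codons are 10189 bases apart. The 1a exon had 26 of 37 junction reads in replicate 1, 70.3% (54.2 to 82.5), and 51 of 74 in replicate 2, 68.9% (57.7 to 78.3). The 1c exon had 9 and 21, 24.3% (13.4 to 40.1) and 28.4% (19.4 to 39.5). The intervals of the 2 libraries overlapped for each form, and those of 1a and 1c did not overlap in either. A chain of 19 exons from the 1c exon had 8 and 17 reads, and GENCODE has no transcript with that full chain. The annotated 1a transcript had 19 and 42 reads.

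**Figure D4:**
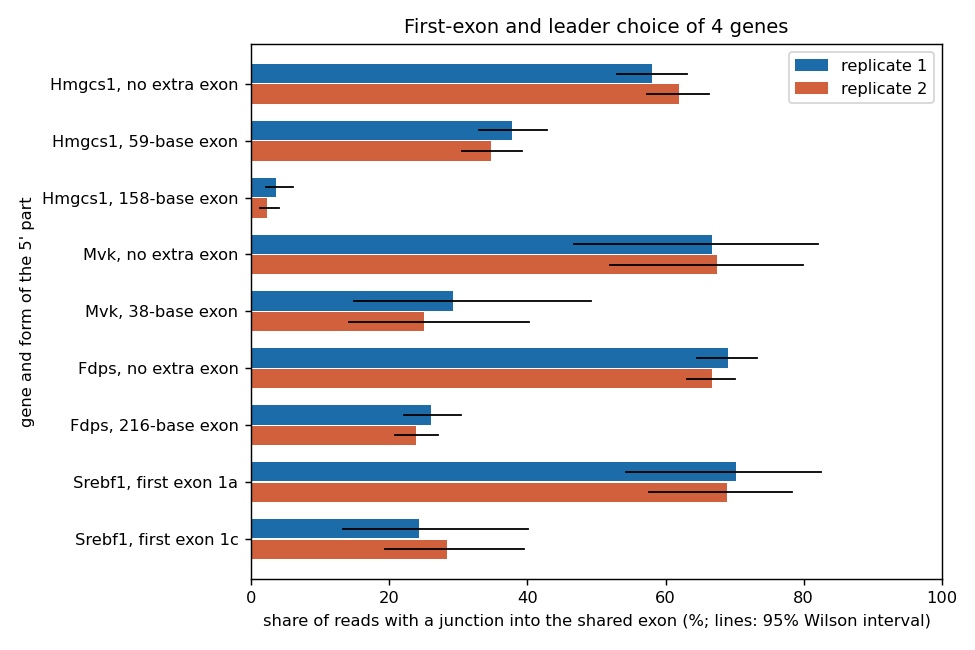
Bars give the share of reads with a junction into the shared exon that used each upstream form, in percent, by library, with 95% Wilson intervals as lines. In Hmgcs1, Mvk, Fdps and Srebf1 the most used form takes 58.1% to 70.3% in both libraries.

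Use of annotated transcripts was compared between the libraries by Fisher's exact test on the most read transcript, with Benjamini-Hochberg adjustment over all 1866 genes tested. None of 13 members tested passed at an adjusted p of 0.05, 0 had an unadjusted p under 0.05, and 0.161% of all genes tested passed. The form of Fdps without the added exon held 71.7% and 71.6% of its annotated reads, and that of Hmgcs1 59.9% and 64.3%. Among genes with at least 20 annotated reads in each library, 2 of 22 members (9.09%) had a second annotated transcript at 20% or more in both, the forms of Hmgcs1 and Fdps with the added exon, against 10.4% of 3057 genes. Srebf2, below that depth, had 4 of 15 and 10 of 22 annotated reads on a retained-intron transcript with no coding region.

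Chains outside the annotation were matched by their full set of introns. The members had 221 spliced chains with a new combination or a new splice site, of which 43, or 19.5%, were read in both libraries, against 13.4% of 44159 chains of all genes. Of the 221, 163 rested on 1 read in these classes, and 1 of those, in Pmvk, was classed as an incomplete match in the other library. The 43 came from 19 genes, and the models of 16 of them kept the whole coding region in at least 1 library. Those with the highest smaller count were the Dhcr7, Hmgcs1, Srebf1 and Mvk chains above and a 4-exon Insig1 chain with 5 reads in each library, which keeps an annotated intron and not the whole coding region. A Scap chain of 23 exons with a first exon that ends at 110333766 had 3 and 4 reads and kept the coding region in at least 1 library.

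Reads on models that keep the whole coding region were counted for every gene. Model ends were used, so a read that stops short of them still counts. The median was 84.0% over the 25 members with at least 20 reads in each library and 83.0% over 3828 protein-coding genes. Sqle was highest at 96.1% over both libraries. The 5 members with a coding region of at least 2000 bases, Lss, Srebf1, Srebf2, Scap and Mbtps1, ranged from 34.8% to 64.9%, and the 20 with a shorter one from 63.8% to 96.1%. Srebf2 had 11 of 26 and 12 of 40 such reads. For Srebf1 the value, 39.6% and 38.9%, counts the 1a coding region alone.

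The share of incomplete matches was compared between the libraries by Fisher's exact test, adjusted over 3926 genes. Of 25 members tested, Fdps passed, and 1.48% of all genes tested passed. Fdps had 45 of 470 incomplete reads in replicate 1 and 138 of 807 in replicate 2, 9.57% and 17.1% (adjusted p = 0.0157). Over all its models outside the annotation the shares were 13.6% and 21.6%, which did not pass (adjusted p = 0.125). The models that kept the 725-base intron made up 34 and 123 of these, and the others 11 and 15. Hmgcs1 ran the other way, with 41 of 410 and 26 of 469 reads, and did not pass (adjusted p = 0.392). For both genes, models of the last exon alone were classed as genomic in replicate 1 and as incomplete in replicate 2. They held 6 and 2 reads in Fdps and 10 and 6 in Hmgcs1, so these shares depend in part on labels that differ by library. Of spliced incomplete Fdps reads, 75.6% and 83.8% lay on chains whose model held the whole coding region in at least 1 library. For Dhcr7 this was 93.0% and 89.8%. The latter, 456 reads, overstates replicate 2, where 448 of all Dhcr7 reads lay on models that held it in that library. In the other 25 genes this was 20.9% and 10.6%.

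Models of 1 exon outside the annotation had 263 reads in the 27 genes, and 91.6% of those lay in the gene's last exon. Besides Dhcr7, the highest counts in both libraries were in Cyp51 (8 and 8 reads in the last exon), Acat2 (6 and 7), Hsd17b7 (7 and 5) and Msmo1 (4 and 6). Stard4 had 2 and 8 such reads of 11 and 13, and 8 and 4 of its reads lay on models that held the whole coding region.

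The level of each gene was then compared between the libraries, with an exact two-sided binomial test adjusted by Benjamini-Hochberg over the 9271 genes with at least 10 reads. All 27 members reached that minimum, Mbtps2 with exactly 10. Of the 27, 5 passed, all higher in replicate 1: Hmgcs1, Idi1, Sqle, Msmo1 and Dhcr7. Of all genes, 2.15% passed in either direction and 1.35% as higher in replicate 1, so that 62.8% of the genes that passed were higher in replicate 1. With TMM or DESeq2 scaling that split was 72.9%, and with a correction by transcript length 74.6%. The test compares the reads of these libraries, not conditions.

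Hmgcs1 was 1.57 times as high in replicate 1 (log2 ratio of replicate 2 to 1 −0.65, 95% counting interval −0.84 to −0.46, exact binomial adjusted p = 2.04e-08). Idi1 had 103 and 100 reads, 1.85-fold higher in replicate 1 (−0.88, −1.28 to −0.49, adjusted p = 0.00144, exact). Dhcr7 was 1.48 times as high (−0.57, adjusted p = 2.04e-08, exact) and Msmo1 1.42 times (−0.51, adjusted p = 0.000295, exact). Sqle, with 120 and 139 reads, was 1.55 times as high (−0.63, adjusted p = 0.0328, exact), but did not pass with no minimum of reads or with the length correction. Cyp51, at −0.48 (adjusted p = 0.0935, exact), passed with TMM or DESeq2 scaling alone.

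**Figure D5:**
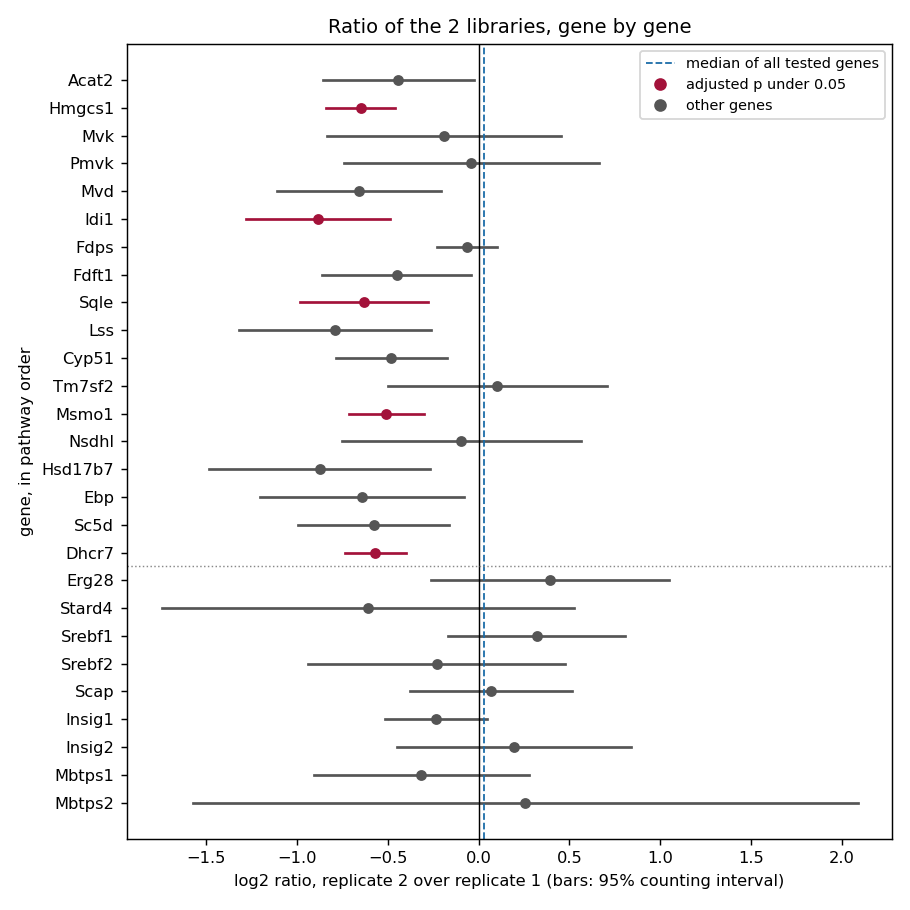
Points are log2 ratios of replicate 2 to replicate 1 with 95% counting intervals, in pathway order; red points have an adjusted p under 0.05, and the dashed line is the median of all 9271 genes, 0.03. The 18 enzymes above the dotted line lie left of 0 except Tm7sf2, and the 7 SREBP genes lie on both sides.

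Of the 18 enzymes, 17 had a log2 ratio below 0, with a median of −0.54 and 13 at an unadjusted p under 0.05, against 1070 of the 9271 genes in either direction. Tm7sf2 was the other one, at 0.10. Fdps, the highest, was nearly level at −0.06 (−0.23 to 0.10). The 7 SREBP genes ranged from −0.31 for Mbtps1 to 0.32 for Srebf1, with a median of 0.07, and none passed (smallest adjusted p = 0.572, Insig1; 0 at an unadjusted p under 0.05). Over all 27 the median was −0.44, with 21 below 0, against 0.03 over all genes, of which 47.9% were below 0. The difference between enzymes and regulators was not tested.

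Of 33 other genes of sterol, isoprenoid and fatty acid synthesis and cholesterol handling, 31 were read in both libraries. The highest were Fads2 at 3525 CPM ± 762, Acly at 2618 CPM ± 250.2 and Fads1 at 646 CPM ± 211 (SD, n = 2). Of the 29 tested, 7 passed, all higher in replicate 1, and 25 had a ratio below 0, with a median of −0.49. Over all 9271 genes tested 2.15% passed, 1.35% as higher in replicate 1, and 47.9% had a ratio below 0. Deeply read genes pass at small ratios: Acly, with 1110 and 1738 reads, passed at −0.20.

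Markers of the gland's own cells also differed between the libraries, in both directions. The counts that follow stand beside 2.15% of all genes tested that passed. Several markers are read deeply, such as Cyp11a1 with 11136 and 17191 reads, so that small ratios pass. Of the 6 adrenal cortex genes, 4 passed: Star (−0.39), Cyp11b1 (−0.27) and Cyp11a1 (−0.22) were higher in replicate 1 and Hsd3b1 (0.15) in replicate 2. Of the 5 chromaffin genes, with 10892 and 11936 CPM in all, 3 passed: Chgb (0.36) and Chga (0.15) were higher in replicate 2 and Th (−0.32) in replicate 1. The 9 liver genes had 120 reads in replicate 1 and 34 in replicate 2 (302 and 47.8 CPM); Alb had 32 and 1, Apoa1 23 and 0 and Apoa2 21 and 0, while Cyp2e1 had 18 and 31 (45.3 and 43.5 CPM), most of the reads of replicate 2. Of the 9, 3 were read in both, and 4 of the 5 tested passed, all higher in replicate 1. The 6 fat genes had 1823 and 1361 CPM, and 1 of them, Ucp1 with 209 and 199 reads, passed as higher in replicate 1. The 7 heat shock genes had 2981 and 1664 CPM, all with a ratio below 0, and 4 of them passed as higher in replicate 1. The 4 kidney genes had no read in either library. What these differences contribute to those of the sterol genes was not tested.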

How the data were processed

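Long-read RNA sequencing of adrenal gland was analysed in 2 libraries of 1 group. Per the file headers, the authors deposited whole read counts per transcript model, aligned to mm10 and assigned to GENCODE M21 extended by TALON models, separately per library. The aligner and program versions are not given in the sources used here. Models were used in the deposited classes, and gene counts are sums over all models of an annotated gene, without added control RNAs. CPM is over annotated-gene reads. Binomial and Fisher tests (SciPy 1.17.1) were exact and two-sided, with Benjamini-Hochberg adjustment over all genes tested called at 0.05. Before log2 ratios were taken, 0.5 was added to both counts. Scaling alternatives came from edgeR 4.0.16 and DESeq2 1.42.0. The scripts were tested on simulated data. Spliced models of the 2 libraries were paired by their intron chain. Annotated models carry annotated ends, so the reads' own ends are not resolved there. A read was counted as keeping the coding region if its model spanned that of the gene's most read coding transcript with the same introns. Named models followed a rule: annotated transcripts with 20% in each library, the 10 new chains and 10 incomplete models with the highest smaller count, and the 5 such models of 1 exon. The members and lists were chosen with earlier results of these data known. Strain alleles were not examined.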

Additional observations from a re-analysis of the deposited data

Results flagged for a closer look

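Models on the strand opposite to a member and outside annotated genes lie outside the measurements above. Of 21 members with such reads, Dhcr7 and Srebf2 had more than the 3 reads that a count of 0 allows in each library, and no other member had more than 5 in either. On the strand opposite to Dhcr7 there were 14 reads in replicate 1 and 24 in replicate 2. All lay on a 1-exon model of 366 bases (chr7:143848044-143848409) within the last exon. In its own direction that model begins at 143848409, the base where most Dhcr7 models end. On the strand opposite to Srebf2 there were 4 reads in replicate 1 and 8 in replicate 2, on 1-exon models between 82149126 and 82154868 of chromosome 15, near the gene's start. No control sample gives a background for these reads.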

How the results depend on the processing

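The count of 5 genes past the threshold ran from 4 to 6 over the scaling, minimum, length and model settings, and all of those genes were higher in replicate 1. With annotated transcripts alone, 4 ratios changed sign, none of them past the threshold: Tm7sf2 to −0.49, Scap to −0.24, Nsdhl to 0.056 and Mvk to 0.029, and levels of 5 genes moved by over 1.5 times, with Dhcr7 at 0.912 CPM. Fdps passed the test of incomplete models at minimum reads of 10, 20 and 50. When all models outside the annotation were counted instead, 0 members passed (3 at an unadjusted p under 0.05; 9 of 3926 genes passed), with Fdps at 13.6% and 21.6% (adjusted p = 0.125 by Fisher's exact test). The cause was not tested. Chains outside the annotation read in both libraries fell from 43 to 10 with at least 3 reads in each, and to 0 when matched by the deposited model names, which are given per library. No member passed the test of transcript use under any of the 3 other settings. No paired analysis was possible because there is a single group. Depth limits the low genes: the interval of Mbtps2 runs from −1.57 to 2.09 on the log2 scale.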
